A study of Rattus norvegicus with 9 samples.

Results

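Hey1 and 8 other genes of the Notch pathway (Hey2, Heyl, Hes1, Notch1, Notch4, Dll4, Jag1 and Jag2) were followed in cardiac RNA-seq of 9 Sprague Dawley rats. The genes were taken by symbol, and 6 of the 9 are among the 5760 genes listed in the deposited tables. Jag2, Notch1 and Notch4 are listed in the Cal and Model table only, Hes1 in the Cal and Con table only, and Hey1 and Heyl in both. Hey2, Dll4 and Jag1 are listed in neither, and their levels were not analysed here. The members were thus chosen by measured values: the tables hold genes with an authors' adjusted p below 0.05, and Hey1 was selected as one of the largest falls of the Cal-headed libraries against the Con-headed ones. All levels and differences of these genes in the tables are therefore given as descriptions, without p-values.

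Each of the 3 groups held 3 male rats, drawn at random from a larger group. The Con group is the sham group, whose rats were operated on with the left anterior descending (LAD) artery not tied and received distilled water by mouth. The Model rats had the LAD artery ligated, which induces heart failure (HF), and also received water. The Cal rats had the same ligation and were treated with Cal (calycosin, an isoflavone) at 80 mg/kg per day from 24 h after surgery for 28 days. No transgene or gene deletion was used, the animals' age is not given in the sources used here, and the labels give the tissue as heart without saying which part of it.

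The column headings conflict, and both tables share the same Cal-headed libraries. For the Cal and Model table, averaging the 3 sample columns with a Model heading gives the values of the authors' Cal mean, and averaging the Cal ones gives their Model mean. For the other table the authors' Model mean likewise equals the average of the Cal sample columns. That table, called the Cal and Con table here, was deposited under a name that reads Model against Con. The paper describes a gene set of the same size as targets of the HF model. Both the deposited name and this description go with the mean columns, not with the sample columns. The paper also reports more genes down than up for Cal against model. By the sample columns, the gene calls defined below were likewise more often lower (1356) than higher (1219) in the Cal-headed libraries. Median-ratio scaling turned this to 1047 lower and 1646 higher. Which heading is right was not settled here. Libraries are named here by their sample column (Cal-headed, Model-headed and Con-headed), and by the mean columns "Cal-headed" would read model and "Model-headed" would read Cal in every comparison below. Reads on the listed genes were 2860826 to 3998471 per library in the Cal and Model table and 3270460 to 4659882 in the other, which is not the full depth. The cardiomyocyte gene Myh6 had 335145 ± 1036 normalized counts in the Cal-headed libraries and 275029 ± 33746 in the Con-headed ones (SD, n = 3 each), so the defining marker of heart muscle was present. Gene identifiers and coordinates in the tables are those of mouse, for libraries labelled as rat, and how this affected the counts was not tested.

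The Notch pathway passes signals between touching cells. A ligand of the Delta-like or Jagged family on one cell binds a Notch receptor on the next, the receptor is cut by an ADAM protease and then by γ-secretase, and its intracellular part joins the DNA-binding protein RBPJ and a Mastermind coactivator in the nucleus. The best known target genes encode the Hes and Hey transcriptional repressors and the feedback inhibitor Nrarp. In the heart the pathway is known for valve and ventricle formation and, in the adult, for arterial endothelium and the smooth muscle cells and pericytes around it.

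RBPJ binds a short core, TGGGAA, and the bases upstream of 4 pathway genes are shown to let a reader see where this core stands in genes that differed between groups. The sequences are rat, from RefSeq on GRCr8, and cover the 250 bases before the annotated start, 5′ to 3′. Capitals mark TGGGAA or its reverse complement TTCCCA. Promoters matched for 5 of the 6 listed members (Heyl, Hes1, Notch1, Notch4 and Jag2).
Hes1 (chr11:84213046-84213295, minus strand): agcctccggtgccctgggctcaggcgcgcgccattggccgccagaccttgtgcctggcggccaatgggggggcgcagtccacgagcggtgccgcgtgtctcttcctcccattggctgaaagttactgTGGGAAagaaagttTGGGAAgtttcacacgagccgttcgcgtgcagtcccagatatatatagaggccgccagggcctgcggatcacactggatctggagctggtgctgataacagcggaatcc
Heyl (chr5:140793021-140793270, plus strand): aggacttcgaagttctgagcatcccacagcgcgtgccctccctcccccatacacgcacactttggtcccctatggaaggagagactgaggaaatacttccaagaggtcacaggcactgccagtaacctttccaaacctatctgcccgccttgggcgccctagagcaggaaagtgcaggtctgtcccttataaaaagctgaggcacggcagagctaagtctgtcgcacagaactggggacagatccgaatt
Notch4 (chr20:4189073-4189322, minus strand): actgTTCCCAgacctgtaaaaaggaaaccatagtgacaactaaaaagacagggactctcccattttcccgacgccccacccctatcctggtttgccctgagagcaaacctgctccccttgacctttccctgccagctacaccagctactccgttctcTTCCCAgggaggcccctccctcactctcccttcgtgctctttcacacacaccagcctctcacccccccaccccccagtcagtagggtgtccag
Lfng (chr12:19152919-19153168, minus strand): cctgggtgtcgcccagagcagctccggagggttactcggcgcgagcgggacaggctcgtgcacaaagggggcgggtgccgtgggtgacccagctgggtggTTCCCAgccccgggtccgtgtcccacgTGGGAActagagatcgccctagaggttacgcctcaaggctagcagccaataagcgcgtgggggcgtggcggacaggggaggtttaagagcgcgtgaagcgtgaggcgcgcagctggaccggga
Hes1 held 2 copies in the same orientation, starting 123 and 109 bases before the start. Lfng, a fringe glycosyltransferase that modifies Notch receptors and is no member, held 2 copies on opposite strands, and Notch4 held 2 copies on the opposite strand. Heyl, Notch1 and Jag2 held none in these windows. Of the 5 listed members with a promoter, 2 held 2 copies. Of 28 listed pathway genes with a promoter, 11 held the core and 5 held 2 copies. The 4 sequences shown are thus no measure of the share among these genes. Among all 33469 rat promoters of this length, 22.1% held at least 1 copy and 2.71% at least 2.

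Hey1 (ENSMUSG00000040289, chromosome 3 from 8663359 to 8667256 in the tables' mouse annotation, whose build is not named) encodes a basic helix-loop-helix repressor. In the Cal and Con table its normalized count (reads divided by the library's size factor) was 225, 282 and 261 in the Con-headed libraries 1 to 3, and 52.6, 22.1 and 21.9 in the Cal-headed ones 1 to 3. All 3 Con-headed libraries were above all 3 headed Cal, and the group means of 256 ± 29.0 and 32.2 ± 17.7 (SD, n = 3 each) differ 7.94-fold. The log2 fold change of Cal over Con was -3.07 (standard error, SE, 0.33) on the log2(normalized count + 1) scale, the lowest but 7 of the 2458 listed genes, in rank 8. Leaving out single libraries gave -3.48 to -2.86.

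Within the Cal-headed libraries, Hey1 was uneven. Replicate 1 had 51 reads (exact 95% Poisson interval 38.0 to 67.1), against 21 (13.0 to 32.1) in replicate 2 and 23 (14.6 to 34.5) in replicate 3, intervals that cover counting error only. Replicate 1 thus stood 2.39 times above the mean of the other 2, outside their counting intervals. A like excess appeared in Lfng (2.24 times) and in Nrarp (1.99 times), both picked after their values were seen. Of the listed genes with a mean of at least 20 in the Cal-headed libraries, replicate 1 stood over 1.5 times above the other 2 in 3.49% in the Cal and Con table.

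In the Cal and Model table Hey1 was near the limit of detection. Its normalized count was 47.0, 19.7 and 19.6 in the Cal-headed libraries 1 to 3, and 9.72, 0 and 6.71 in the Model-headed ones 1 to 3. The Model-headed libraries held 9, 0 and 7 reads, and a count of 0 allows up to 3 reads, which is 3.66 normalized counts in that library. The groups did not overlap, and the Cal over Model log2 fold change was 2.65 (SE 0.89). It ranged from 1.59 without Model replicate 2, the library with no read, to 3.30 without Model replicate 1. Without Cal replicate 1 it was 2.25.

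**Figure D1:**
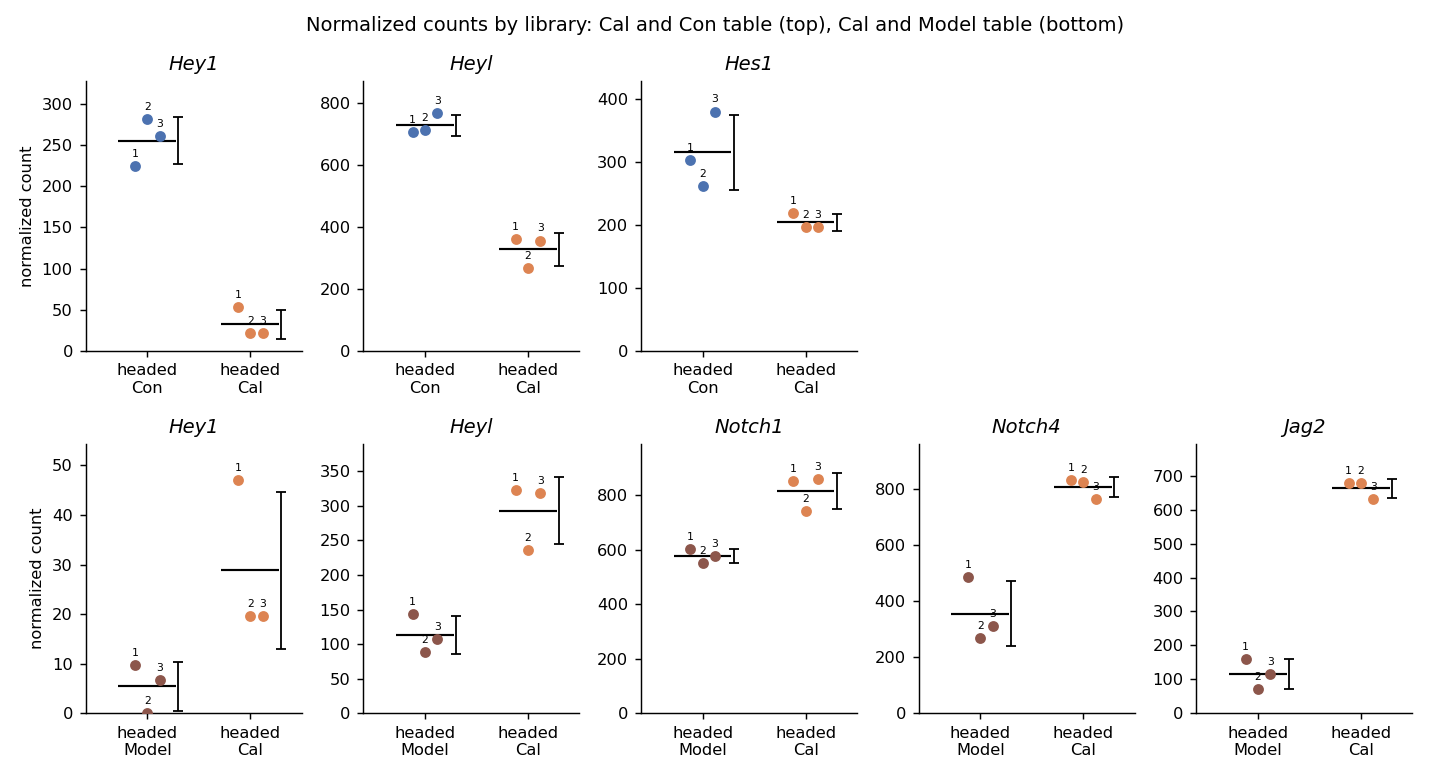
Normalized counts (y axis, linear from 0) of each listed gene by library, with the Cal and Con table in the top row and the Cal and Model table in the bottom row; numbers mark replicates, black lines the means and bars the SD (n = 3). Hey1 stands at 225 to 282 in the Con-headed libraries, 21.9 to 52.6 in the Cal-headed ones on the same scale, and 0 to 9.72 in the Model-headed ones on the scale of the other table.

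Heyl (ENSMUSG00000032744, chromosome 4 from 123233556 to 123249875) encodes a Hey family repressor known in vascular smooth muscle cells and pericytes. Its normalized count was 704, 712 and 765 in the Con-headed libraries, and 361, 265 and 355 in the Cal-headed ones. The Con-headed libraries were close together and all above the Cal-headed ones. The log2 fold change of Cal over Con was -1.16 (SE 0.14), a smaller difference than that of Hey1 on the same scale. Against the Model-headed libraries the direction was the other one: 323, 237 and 319 in the Cal-headed ones and 144, 89.0 and 107 in the Model-headed ones. These groups did not overlap either, and the Cal over Model log2 fold change was 1.37 (SE 0.23).

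Hes1 (ENSMUSG00000022528, chromosome 16 from 30064384 to 30067796) encodes the Hes family repressor whose upstream bases, shown above, held 2 copies of the core in the same orientation. Its normalized count was 304, 262 and 381 in the Con-headed libraries and 220, 197 and 196 in the Cal-headed ones. The lowest Con-headed library remained above the highest Cal-headed one, although the Con-headed ones spread widely (mean 316 ± 60.0 against 204 ± 13.4, SD, n = 3 each). The log2 fold change of Cal over Con was -0.61 (SE 0.16), from -0.73 to -0.47 with each library left out. Per kilobase of the deposited gene length, the mean level in the Con-headed libraries was 155 normalized counts for Hes1, 142 for Heyl and 78.4 for Hey1. In the Cal-headed ones it was 100.3, 64.0 and 9.86, so on this per-length scale Hey1 was the lowest of the 3 in both groups.

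**Figure D2:**
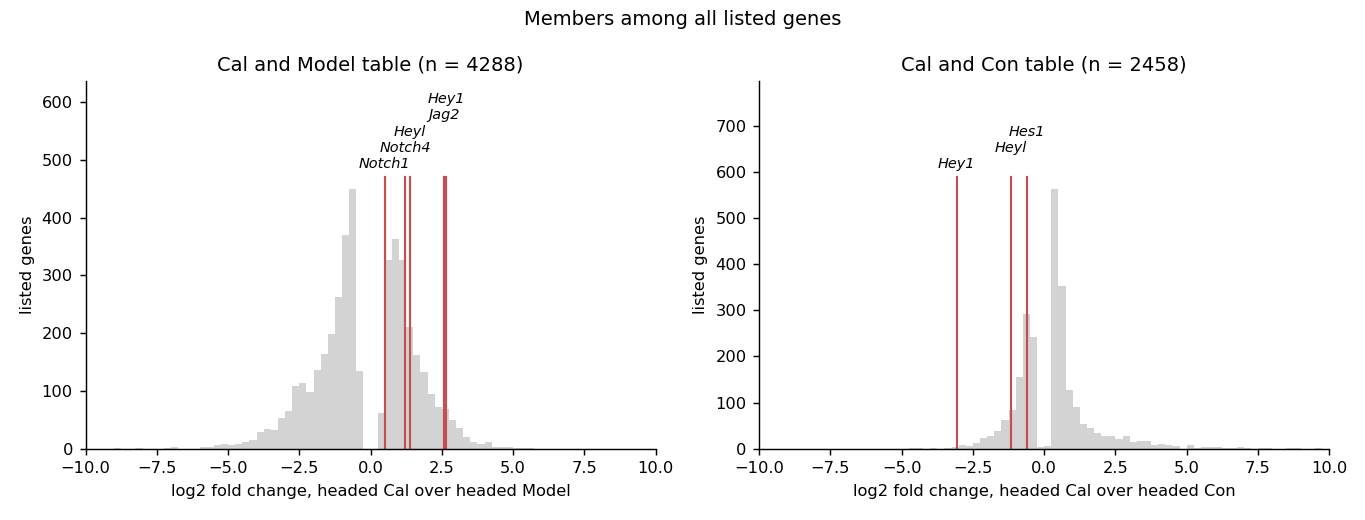
Histograms of the log2 fold change (x axis) of all listed genes of each table, with the y axis counting genes in bins of 0.25, and red lines at the listed members. In the Cal and Con table Hey1 lies at -3.07, Heyl at -1.16 and Hes1 at -0.61, and in the Cal and Model table the 5 members lie between 0.49 and 2.65.

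Jag2 was the listed ligand among the members (ENSMUSG00000002799, chromosome 12 from 112907819 to 112929776). Its normalized count was 679, 679 and 630 in the Cal-headed libraries and 160, 70.7 and 115 in the Model-headed ones. The Cal-headed libraries lay within a narrow band far above the Model-headed ones, a 5.75-fold difference of means. The log2 fold change was 2.59 (SE 0.28), with 2.28 to 2.86 when single libraries were left out. Dll1, a Delta-like ligand outside the 9 genes, had the opposite direction, with 101 ± 24.8 in the Cal-headed libraries and 201 ± 62.3 in the Model-headed ones (SD, n = 3 each), the log2 fold change being -0.96 (SE 0.30). Per kilobase, the mean level of Jag2 was 95.1 normalized counts in the Cal-headed libraries, where that of Dll1 was 23.9, while in the Model-headed ones it was 16.5 against 47.7 for Dll1. The order of these ligands by level per kilobase of the deposited gene length was thus reversed between the groups. Dll1 was chosen after its values were seen, and how the mouse identifiers affected levels of different genes was not tested.

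The 2 receptor genes among the members were both higher in the Cal-headed libraries than in the Model-headed ones. Notch4 (ENSMUSG00000015468, chromosome 17 from 34564268 to 34588503), a receptor found mainly in endothelial cells, had a normalized count of 830, 824 and 764 in the Cal-headed libraries and 487, 268 and 311 in the Model-headed ones. The Model-headed libraries were the more variable, with Model 1 nearest to the Cal-headed ones, and the log2 fold change was 1.23 (SE 0.23). Notch1 (ENSMUSG00000026923, chromosome 2 from 26457903 to 26516663), the receptor with the broadest role in vessels, had 851, 742 and 859 in the Cal-headed libraries and 604, 554 and 579 in the Model-headed ones. Every Cal-headed library was above every Model-headed one, but the difference was smaller, a log2 fold change of 0.49 (SE 0.13). Notch3, the receptor of vascular smooth muscle and no member, had 863 ± 128 and 428 ± 17.0 (SD, n = 3 each), the log2 fold change being 1.00 (SE 0.15), at the limit for a call and no longer called without Model replicate 1 or 3 or Cal replicate 1 or 3, or at a pseudocount of 10. Per kilobase the mean level in the Cal-headed libraries was 107 normalized counts for Notch3, 100.01 for Notch4 and 57.4 for Notch1.

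A gene counted as called where limma gave it an adjusted p below 0.05 and the log2 fold change exceeded 1 in size. Against Model, 4 of the 5 listed members were called, Hey1, Heyl, Jag2 and Notch4, all higher in the Cal-headed libraries, while 60.1% of all listed genes were called, 28.4% higher and 31.6% lower. Without Cal replicate 1, 3 of the 5 were called, Hey1 no longer among them. Against Con, 2 of the 3 listed members were called, Hey1 and Heyl, both lower in the Cal-headed libraries, while 29.0% of all listed genes were called, 18.0% higher and 10.9% lower. The groups did not overlap for any listed member in either table, which also held for 98.2% and 97.4% of all listed genes. Since the tables hold only genes that the authors' test picked in these same libraries, nothing is read from these counts.

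Lists of 70 pathway genes, written by role, held 34 genes listed in at least 1 table. Against Model, 22 were listed, 11 called higher in the Cal-headed libraries, 1 called lower and 10 not called, with a median log2 fold change of 0.99 beside -0.52 over all listed genes. Against Con, 16 were listed, none called higher, 7 called lower and 9 not called, with a median of -0.52 beside 0.37. Over all listed genes, 28.4% were called higher and 31.6% lower against Model, and 18.0% and 10.9% against Con. As the authors' test picked all of these genes, nothing is read from the counts or medians. The genes called higher in the first table and lower in the second were the target genes Hey1, Heyl and Nrarp.

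Nrarp, an ankyrin repeat protein that feeds back on Notch, was listed in both tables. Its normalized count was 54.4, 28.2 and 26.5 in the Cal-headed libraries and 5.40, 2.44 and 2.88 in the Model-headed ones, from 5, 2 and 3 reads in the latter. The groups did not overlap, and the Cal over Model log2 fold change was 3.01 (SE 0.42). Against the Con-headed libraries, with 61.5, 119 and 81.0, the Cal-headed ones had 60.9, 31.6 and 29.5, so Cal 1 lay just below the lowest Con-headed library. That log2 fold change was -1.11 (SE 0.34), and its call was lost at a pseudocount of 10, without Cal replicate 2, without Cal replicate 3 and without Con replicate 2.

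Of the genes that modify receptors and ligands, 6 were listed against Model, 3 called higher and 1 lower in the Cal-headed libraries. Against Con, 6 were listed, none called higher and 3 called lower. Mfng, a fringe glycosyltransferase, had 128 ± 15.8 in the Cal-headed libraries and 44.2 ± 18.5 in the Model-headed ones (SD, n = 3 each), with the log2 fold change at 1.59 (SE 0.32). Its relative Lfng had 47.5 ± 24.1 in the Cal-headed libraries and 137 ± 10.7 in the Con-headed ones, a log2 fold change of -1.61 (SE 0.31). Mfng is listed only against Model and Lfng only against Con, so their directions cannot be compared. Neurl1b, a ubiquitin ligase for Notch ligands, was called lower against Con (-1.54, standard error 0.20), as was the Deltex family gene Dtx4 (-1.22, standard error 0.19). Fbxw7, the ubiquitin ligase subunit that marks the cleaved receptor for breakdown, was called higher against Model, with 780 ± 87.4 and 243 ± 63.7 (SD, n = 3 each), the log2 fold change being 1.71 (SE 0.22). Dtx3 was also called higher against Model (1.08, standard error 0.23), but not without Model replicate 2. The one gene called lower there was Dtx3l (-2.69, standard error 0.36), a Deltex family member known as the interferon-inducible partner of PARP9.

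Of 4 listed cleavage genes in the Cal and Model table, Aph1b, a γ-secretase subunit, was called higher in the Cal-headed libraries (1.17, standard error 0.29), a call lost without Model replicate 2. The log2 fold change of the γ-secretase gene Psen2 was -0.73 and that of the protease gene Adam17 was -0.82, neither called. Against Con, the 3 listed cleavage genes, Adam10, Aph1a and Furin, had log2 fold changes from -0.41 to 0.65, none called. Among nuclear genes, the Mastermind coactivator Maml3 was called higher against Model (1.52, standard error 0.30) and the RBPJ-interacting corepressor Cir1 lower against Con (-1.04, standard error 0.29). The call of Cir1 was lost with edgeR, with DESeq2, at a pseudocount of 10, without Cal replicate 3 and without Con replicate 2. Rbpj itself is listed in neither table.

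**Figure D3:**
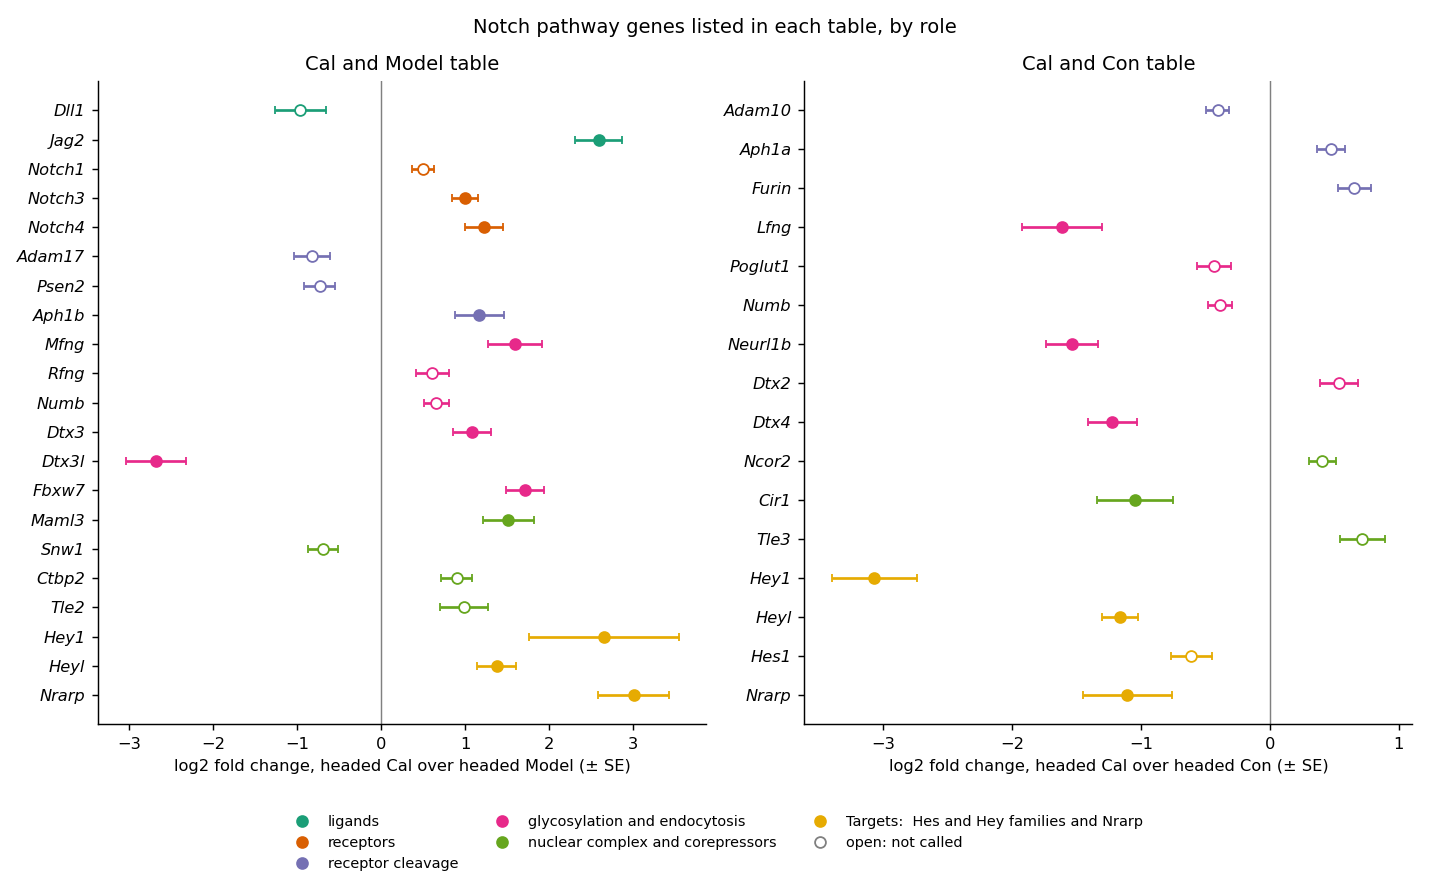
Log2 fold change (x axis) with standard error bars for the listed Notch pathway genes (y axis), coloured by role, in the Cal and Model table (left, with 1 of the 22 genes not drawn) and the Cal and Con table (right, 16 genes); filled points were called and open points were not. The targets Hey1, Heyl and Nrarp stand to the right of 0 on the left and to the left of 0 on the right.

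The 4 pathway genes listed in both tables could be followed across all 9 libraries. The Cal-headed libraries had identical reads in both tables for 986 of 986 shared genes, so the level in the Con-headed libraries was set on the scale of the other table by a factor of 0.894. Because the tables were normalized separately, these levels are descriptive. Hey1 had 229 ± 26.0 in the Con-headed libraries, 28.8 ± 15.8 in the Cal-headed ones and 5.48 ± 4.98 in the Model-headed ones (SD, n = 3 each). Heyl had 650.1 ± 29.9, 293 ± 48.6 and 113 ± 27.8, and Nrarp 77.9 ± 26.1, 36.4 ± 15.7 and 3.57 ± 1.60, in the same order. Numb, which encodes an inhibitor of Notch, had 689 ± 35.7, 526 ± 22.1 and 336 ± 43.6. All 4 stood highest in the Con-headed libraries and lowest in the Model-headed ones, with no overlap between neighbouring groups, although for Nrarp the lowest Con library and the highest Cal library were 55.0 and 54.4. Of the 986 shared genes 226 (22.9%) showed this order without overlap. By the mean columns, the group between the other two would be the model group and the lowest group the Cal group.

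The 5 genes with the pattern nearest to that of Hey1 over these 9 libraries, among 906 genes with a mean of at least 100 in their highest group, were Myct1, Clec14a, Wscd1, Cbfa2t3 and D630003M21Rik. Likeness was the root mean square difference of the log2 levels after each gene's mean over the groups was taken out. It was 0.86 for Myct1, 0.98 for Clec14a and 1.04 to 1.05 for the other 3, with Pearson correlations of 0.92 to 0.98, which rest on 3 groups of libraries and on a Hey1 level near 0 in the Model-headed ones. Clec14a, which encodes an endothelial C-type lectin, had 371 ± 28.9, 107 ± 38.5 and 27.3 ± 14.6 in the Con-, Cal- and Model-headed libraries (SD, n = 3 each). Myct1 had 529 ± 41.9, 110.1 ± 32.8 and 13.3 ± 9.05.

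**Figure D4:**
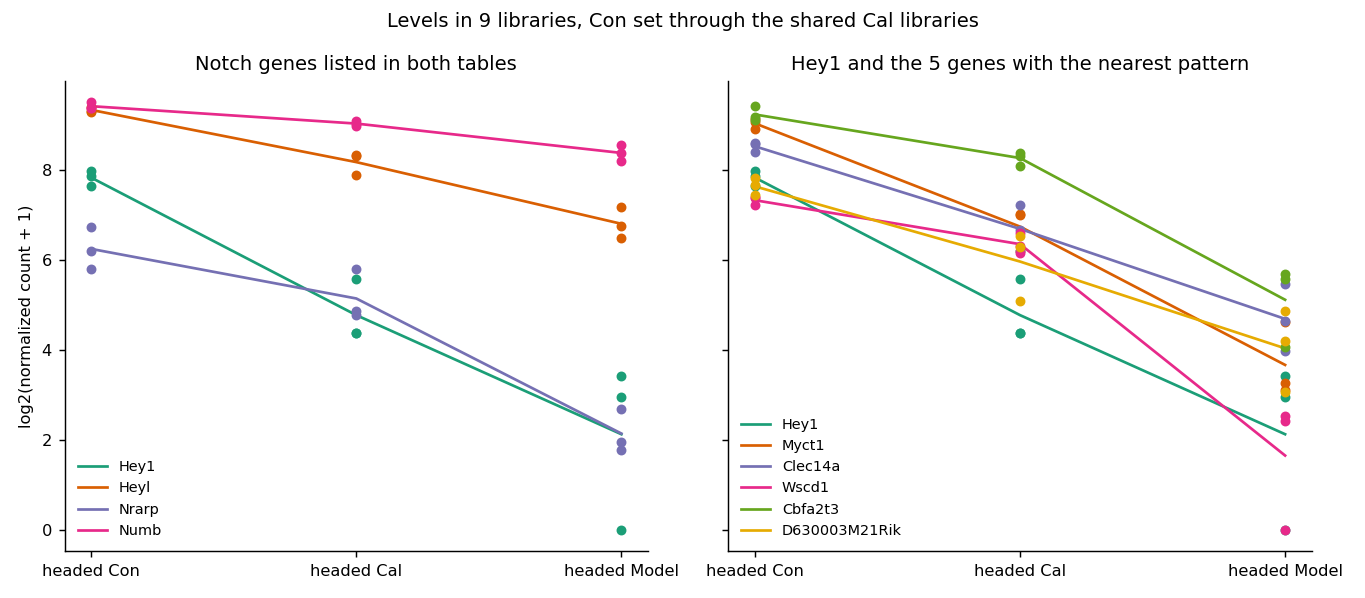
Log2(normalized count + 1) (y axis) in the 9 libraries by group (x axis), with points for libraries and lines through group means of the log2 values, for the 4 Notch genes listed in both tables (left) and for Hey1 with its 5 nearest genes (right). Levels in the Con-headed libraries were set through the Cal-headed libraries, and every line falls from Con to Cal to Model.

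Most listed endothelial markers differed in the same directions as these genes. In bulk tissue, fewer cells of a type and less RNA per cell cannot be told apart. Of 17 pan-endothelial markers 14 were listed in the Cal and Model table, 13 with the higher mean in the Cal-headed libraries (9 called higher, 1 lower), and their summed normalized count was 19915 to 22951 in the Cal-headed libraries and 10319 to 11247 in the Model-headed ones. Against Con, 13 were listed, 11 with the lower mean in the Cal-headed libraries (2 called lower, 1 higher), with sums of 23824 to 27454 in the Cal-headed ones and 33761 to 39724 in the Con-headed ones. The sums rest on listed markers only, which the authors' test had picked. Over all listed genes, the shares called higher and lower were 28.4% and 31.6% against Model, and 18.0% and 10.9% against Con.

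Set per 1000 counts of these markers, the members did not all keep their differences. Hey1 was at 6.65, 7.10 and 7.43 in the Con-headed libraries and 1.92, 0.93 and 0.81 in the Cal-headed ones, so the groups remained apart. Heyl remained apart too, at 20.8, 17.9 and 21.8 against 13.2, 11.1 and 13.1, whereas for Hes1 the groups overlapped (6.60 to 10.8 against 7.23 to 8.26). Against the Model-headed libraries, Jag2 was at 29.6, 34.1 and 28.2 in the Cal-headed ones and 15.3, 6.85 and 10.2 in the Model-headed ones, still without overlap. The groups overlapped for Hey1, Heyl and Notch4. Notch1 changed direction, with 37.1 to 38.4 in the Cal-headed libraries and 51.5 to 57.8 in the Model-headed ones. The authors' test picked these 14 markers in the same libraries, and 13 had the higher mean in the Cal-headed ones. Dividing by them lowers Cal-headed values against Model-headed ones. Against Con, 11 of 13 had the lower mean, so there it raises them. Overlap or a changed direction in these ratios is therefore not read as a result.

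**Figure D5:**
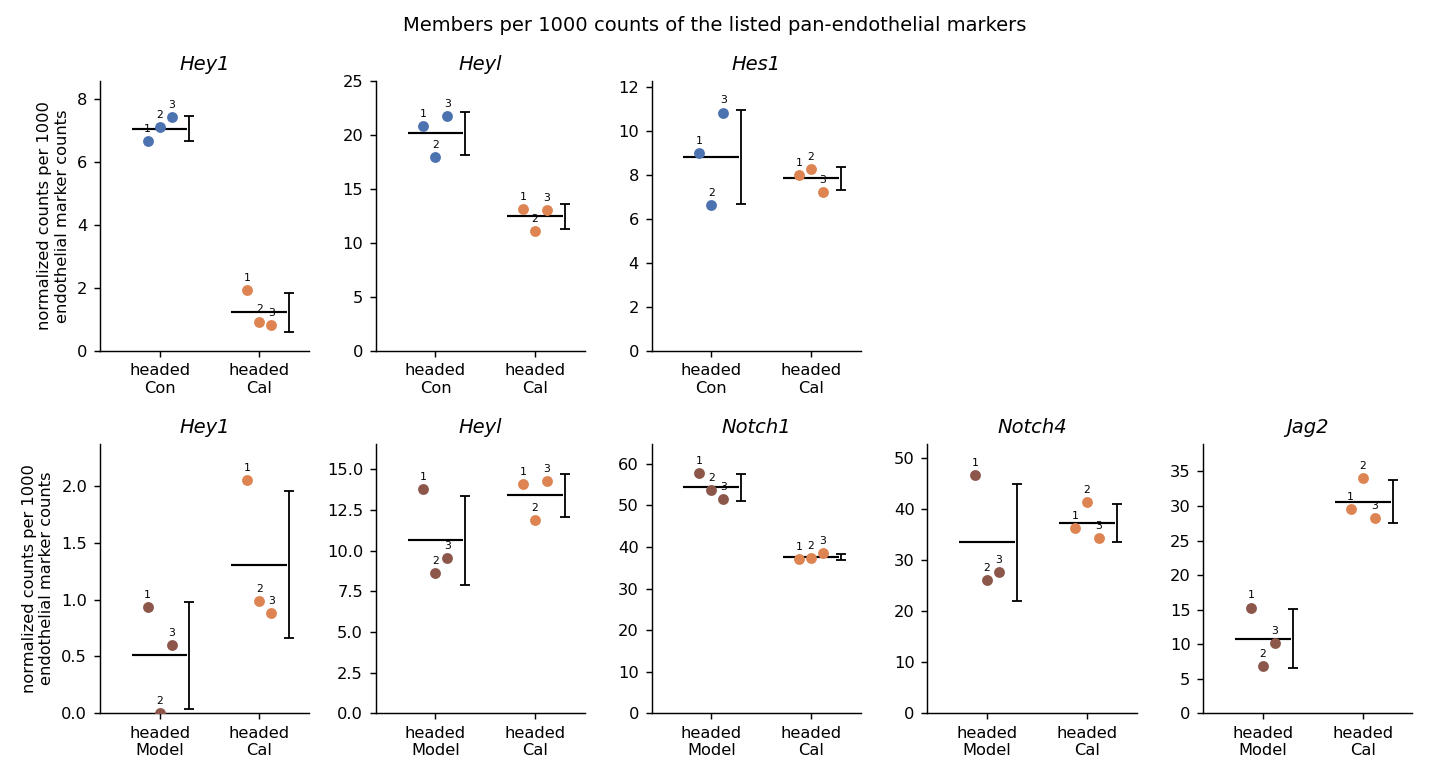
Normalized counts per 1000 counts of the listed pan-endothelial markers (y axis, linear from 0) by library, with the Cal and Con table on top (13 markers) and the Cal and Model table below (14 markers); numbers mark replicates, lines the means and bars the SD (n = 3). Hey1 stays apart from the Con-headed libraries, at 0.81 to 1.92 against 6.65 to 7.43. Per marker count, Notch1 is lower in the Cal-headed than in the Model-headed libraries, although its normalized count is higher there. This changed direction is not read as a result.

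Arterial markers, a state that Notch maintains, were mixed against Model, while all 5 listed against Con had the lower mean in the Cal-headed libraries. Of 12, 10 were listed in the Cal and Model table, 7 called higher in the Cal-headed libraries and 2 lower, and 5 in the Cal and Con table, 2 called lower. The shares over all listed genes given above stand beside these counts and those of the lists that follow. Efnb2, the arterial ephrin, had 415 ± 97.9 in the Cal-headed libraries and 86.0 ± 23.0 in the Model-headed ones, and Bmx, an endothelial tyrosine kinase, 47.6 ± 11.2 and 6.34 ± 1.40 (SD, n = 3 each). The arterial connexin gene Gja4 went the other way, with 213 ± 29.3 and 693 ± 201. Cxcr4 had the largest fall of the list in both tables, with log2 fold changes of -1.87 (SE 0.44) against Model and -3.97 (SE 0.34) against Con. Sox17, a transcription factor of arterial endothelium, had 64.4 ± 23.1 in the Cal-headed libraries and 266 ± 58.8 in the Con-headed ones. Genes known to act on Notch ligand transcription in endothelium were called higher against Model in 5 of 8 listed and lower in 1, and lower against Con in 4 of 9, among them the flow-responsive factor Klf4 (247 ± 43.4 against 982 ± 88.2, SD, n = 3 each). BMP and SMAD target genes differed among themselves, with 1 called higher and 2 lower of 6 listed against Model, and none higher and 1 lower of 6 against Con. Of the 4 listed in both tables, Smad6, an inhibitory SMAD chosen after its values were seen, stood in the order of Hey1, at 299 ± 16.8, 207 ± 2.79 and 116 ± 15.6 in the Con-, Cal- and Model-headed libraries (SD, n = 3 each), whereas Id1, Id2 and Atoh8 were lowest in the Cal-headed ones. Id1 was lower in the Cal-headed libraries than in both others, at 193 ± 49.1 against 363 ± 86.3 in the Model-headed ones, and at 215 ± 55.0 against 752 ± 136 in the Con-headed ones on the scale of that table.

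The remaining marker lists gave smaller counts. Over all listed genes, 28.4% were called higher and 31.6% lower against Model, and 18.0% and 10.9% against Con. Of the mural cell markers, 1 of 4 listed was called higher against Model (Notch3) and 1 of 6 lower against Con (Kcnj8), and their sums were 9119 to 10165 in the Cal-headed libraries and 5918 to 6650 in the Model-headed ones, and 44033 to 44836 in the Cal-headed ones and 41030 to 44497 in the Con-headed ones. The sum against Con is mostly Des (29350 in the Cal-headed libraries), an intermediate filament gene also abundant in heart muscle and the only one of the 6 with the higher mean there, while the other 5 had the lower mean and the median log2 fold change was -0.44. Of 6 venous markers, 1 of 3 listed was called higher against Model (Ephb4) and 2 of 3 lower against Con (Aplnr and Nr2f2). Of the fibroblast markers, 2 of 4 listed were called higher against Model and 1 of 4 lower against Con. Leukocyte markers were called both ways against Model, with 2 higher and 3 lower of 6 listed, and S100a8 and S100a9, neutrophil genes, were the 2 listed and called higher against Con. No cardiomyocyte marker is listed in the Cal and Model table, and neither of the 2 listed against Con was called. The part of these cell types in the differences of the Notch genes was not tested.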

How the data were processed

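Cardiac RNA of 9 rats was sequenced and counted per gene by the authors, who tested genes with DESeq2. The paper states alignment to rat reference sequences. The submitters' processing notes name Bowtie 0.12.2 and the mouse builds mm8 and mm9, and the deposited gene identifiers are those of mouse. Which reference the counts rest on was not settled here. The deposited signal is a normalized count, the reads of a gene over a size factor that differs by library and table. In every sample column 100% of values were whole reads (within 0.01 of a whole multiple of the smallest step). The deposited p-values were read only to check the listing. The deposited gene length is in bases. Mean columns were used only to compare headings.

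Genes were tested with limma 3.58.1 in R 4.3.3 (trended prior variance) on log2(normalized count + 1) over all 4288 and 2458 listed genes of each table separately, with Benjamini-Hochberg adjustment. A call required an adjusted p below 0.05 with an absolute log2 fold change above 1. The values are counts divided by size factors, so edgeR 4.0.16 and DESeq2 1.42.0 were run on the recovered reads as alternatives. Further settings were a pseudocount of 0.1 or 10, only genes with a mean of 10 or more, quantile and median-ratio scaling, no fold limit, a replicate block and leaving out each library. Scaling to endothelial markers was chosen after seeing the data. Scripts were tested on simulated data. The members and gene lists were chosen with earlier results of these data known. Genes named are the members, called pathway genes, the 2 largest rises and falls of each other list, of which a part is given, and the 5 genes nearest to Hey1. Pathway genes named without a call were chosen after their values were seen. The replicate numbers belong to different animals, and the labels state no pairing by them. The values of 1 listed pathway gene are not reported here, although it is in the counts.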

Additional observations from a re-analysis of the deposited data

How the results depend on the processing

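The 8 member log2 fold changes of both tables were recomputed under every alternative, which gave 120 values, 112 of them without the scaling to endothelial markers. Of these 112, 106 moved by less than the spread between replicates, and the direction was kept in every one. The 6 that moved more came from the other scalings. Quantile and median-ratio scaling took Notch1 from 0.49 to 0.86 and 0.79 against Model, Heyl from -1.16 to -1.46 and -1.45 against Con, and Hes1 from -0.61 to -0.82 and -0.89. These scalings shifted the median of all listed genes by 0.16 and 0.30 against Model and by -0.31 and -0.28 against Con. Median-ratio scaling turned the calls over all genes from 1219 higher and 1356 lower to 1646 and 1047 against Model, and from 443 and 269 to 342 and 447 against Con, where quantile normalization gave 348 and 387. Hey1 against Model depended on the pseudocount, with 3.81 at 0.1, where its call was lost, and 1.31 at 10.

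Scaled to the mean log2 level of the pan-endothelial markers, 1 member was called against Model (Jag2) and 1 against Con (Hey1). Notch1 then reversed to -0.85 and Notch4 to -0.12 against Model, although the mean of Notch4 per summed marker count was 37.2 for Cal-headed and 33.4 for Model-headed libraries. This scaling shifted the median of all listed genes by -1.35 against Model and by 0.38 against Con. Over all listed genes it gave 203 calls higher and 2318 lower against Model, and 723 and 148 against Con. The member calls under it are therefore not read as a result. Without the fold change limit, all 22 listed pathway genes were called against Model, beside 12, and all 16 against Con, beside 7. The authors' test had already picked these genes in the same libraries, so nothing is read from this. With each library left out, members called ranged from 3 to 4 against Model and were 2 against Con, and pathway genes from 10 to 13 and from 5 to 7. Over all listed genes, the calls then ranged from 1121 to 1275 higher and 1223 to 1429 lower against Model. Against Con they ranged from 421 to 470 higher and 251 to 305 lower.

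With the replicate number as a block, 4 and 2 members and 12 and 7 pathway genes were called, as without it. Over all listed genes the block gave 1217 calls higher and 1357 lower against Model, and 443 and 270 against Con. The SE of Hey1 against Model was 0.64 with the block and 0.89 without it. Deviations of same-numbered libraries correlated between -0.14 and 0.11, and those of differently numbered ones between -0.20 and 0.25. With 3 libraries per group, centred within the group, this cannot show whether the numbers mark a pairing. With 3 libraries per group and 16 Hey1 reads in all Model-headed libraries, the size of that difference is poorly determined.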
